A study of Mus musculus with 2 samples.

Results

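The miR-193 and miR-365 genes were examined in microRNA libraries from the heart of aged female mice. The rule took every row of the count tables whose GENCODE M21 symbol is Mir193b, Mir365-1, Mir365-2 or Mir193a (also written Mir193), whatever its value, and it found 4 of 2202 annotated microRNA genes. The tissue was heart of the hybrid B6CASTF1/J, the offspring of C57BL/6J crossed with CAST/EiJ, at an age of 18 to 20 months. There was 1 group, with no treatment and no control group, and it held 2 libraries that the labels number as biological replicates 1 and 2. The labels give separate tissue records but 1 shared donor record, so the spread between these 2 libraries may be technical. SDs measure only that spread, and p-values only set the difference between the 2 libraries against counting noise.

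A microRNA gene is transcribed into a hairpin, from which Drosha and Dicer cut a 5′ arm and a 3′ arm, and an arm loaded into Argonaute represses messenger RNAs that pair with its seed, bases 2 to 8. In mice the miR-193 and miR-365 genes come as a pair of clusters, each with 1 miR-193 gene followed by 1 miR-365 gene. The cluster of Mir193b and Mir365-1 is known in mice for its high level in brown fat and as a regulator of brown adipocyte differentiation in culture. In human cancer cells, miR-193b is known to repress PLAU, the gene of urokinase, and CCND1, the gene of cyclin D1.

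The 3′ arms are shown first, because the miR-193 genes can be told apart by theirs and the miR-365 genes cannot. They are RefSeq sequences of GRCm38.p6, the patch release of the mm10 assembly, written 5′ to 3′ with the seed in capitals.
mmu-miR-193b-3p (Mir193b): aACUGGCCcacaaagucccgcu
mmu-miR-193a-3p (Mir193a): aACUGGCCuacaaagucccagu
mmu-miR-365-3p (Mir365-1 and Mir365-2): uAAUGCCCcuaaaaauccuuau
The 3′ arms of miR-193a and miR-193b share their seed, which no other mouse name in the RefSeq table has, and they agree at 19 of 22 bases. Counted from the 5′ end, the changes between the miR-193a arm and the miR-193b arm are U9C, A20G and G21C. The miR-365 3′ arm is the same at all 22 bases at both loci, and among all GENCODE M21 transcripts this sequence occurs in Mir365-1 and Mir365-2.

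The 5′ arms differ at every locus.
mmu-miR-193b-5p (Mir193b): cGGGGUUUugagggcgagauga
mmu-miR-193a-5p (Mir193a): uGGGUCUUugcgggcaagauga
mmu-miR-365-1-5p (Mir365-1): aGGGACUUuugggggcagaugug
mmu-miR-365-2-5p (Mir365-2): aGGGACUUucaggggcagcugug
Between the miR-193a and miR-193b 5′ arms there are 5 changes, U1C, U5G, C6U, C11A and A16G, of which U5G and C6U lie in the seed, so the seeds of these arms differ. The miR-365 5′ arms keep their seed, and the changes between the arm of Mir365-2 and that of Mir365-1 are C10U, A11G and C19A.

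The whole hairpins show how far the likeness of each pair reaches, and capitals mark the longest stretch that a hairpin shares with its counterpart in the other cluster.
Mir193b: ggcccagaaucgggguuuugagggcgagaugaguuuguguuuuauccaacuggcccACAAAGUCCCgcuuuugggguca
Mir193a: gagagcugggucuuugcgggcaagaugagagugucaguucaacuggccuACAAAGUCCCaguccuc
Mir365-1: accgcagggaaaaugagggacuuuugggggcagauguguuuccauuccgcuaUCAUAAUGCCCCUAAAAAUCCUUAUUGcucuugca
Mir365-2: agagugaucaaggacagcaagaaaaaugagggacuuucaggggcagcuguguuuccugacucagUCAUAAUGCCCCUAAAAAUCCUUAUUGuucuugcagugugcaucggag
The shared stretch is 10 nt long in the miR-193 hairpins and 27 nt long in the miR-365 hairpins. In Mir365-1 it runs over bases 53 to 79 and holds the whole 3′ arm, bases 56 to 77. In Mir365-2 it runs over bases 65 to 91 around the 3′ arm at bases 68 to 89. Of the 20-nt windows of a hairpin, 8 of 68 in Mir365-1 and 8 of 93 in Mir365-2 recur in another annotated microRNA gene, against 0 of 60 in Mir193b and 0 of 47 in Mir193a. The longest stretch that Mir193b shares with any other microRNA gene is 14 nt, with Mir1941, and for Mir193a it is 14 nt, with Gm23813.

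**Figure D1:**
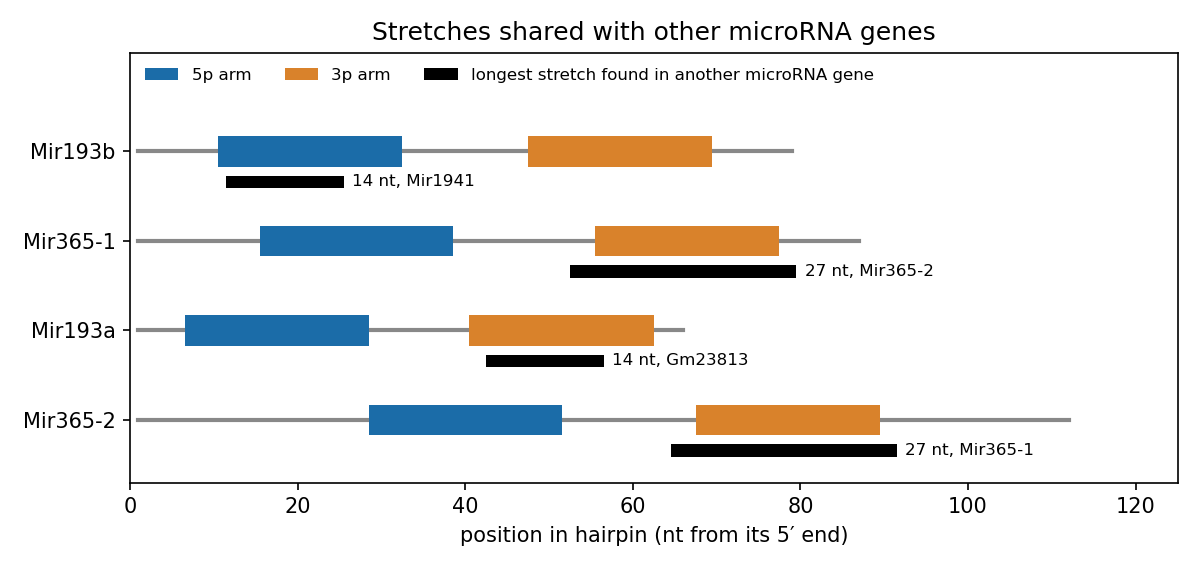
The 4 hairpins are drawn to scale in nt from their 5′ end, with the 5′ arm in blue, the 3′ arm in orange and, in black, the longest stretch found in another microRNA gene. The black bar covers the whole 3′ arm in Mir365-1 and Mir365-2 (27 nt) and part of 1 arm in Mir193b and Mir193a (14 nt each).

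In mm10, Mir193b lies at chr16:13449523-13449601 and Mir365-1 at chr16:13453840-13453926, both on the plus strand and 4238 nt apart. GENCODE M21 has no exon of another gene over either hairpin, and both lie inside the long noncoding antisense gene Gm15738 of the minus strand. RefSeq places both within the long noncoding RNA genes Gm32817 and Gm53058 of the plus strand, the strand of the hairpins. Mir193a lies at chr11:79711969-79712034 and Mir365-2 at chr11:79726400-79726511, on the plus strand and 14365 nt apart, and no other gene of GENCODE M21 or RefSeq overlaps them. Both clusters have a tRNA gene of the same name stem ahead of their miR-193 gene: n-TTcgt5 lies 12128 nt before Mir193b and n-TTcgt3 lies 7247 nt before Mir193a.

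The libraries held 9362013 reads in replicate 1 and 10549508 in replicate 2, of which 3383676 and 3676084 were sense counts of microRNA genes. Reads that mapped to more than 1 place entered no gene count and took 43.9% and 43.2% of the reads. Levels below are counts per 1000000 sense gene counts (CPM), and 3 counts, the limit that a count of 0 allows, correspond to 0.887 CPM in replicate 1 and 0.816 CPM in replicate 2. At least 10 counts in each library, called detected here, were reached by 316 genes. The heart label was checked against 7 cardiomyocyte microRNA genes, of which 4 were detected. Mir499 and Mir208a, which lie in cardiac myosin genes, had 3977 and 1588 CPM in replicate 1, against 3567 and 1247 CPM in replicate 2. Mir1a-2 and Mir208b had fewer counts than these, at 72.0 ± 14.4 and 38.1 ± 29.7 CPM (SD, n = 2). Mir133a-2, Mir1a-1 and Mir133a-1, at 5.21 ± 3.91, 4.04 ± 2.64 and 3.05 ± 2.23 CPM, were not detected. Multimapping reads are missing from these counts, so low counts need not mean that mature miR-1 or miR-133 was scarce. How many of those reads came from these genes could not be told.

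The aged heart yielded both miR-193 genes at a moderate level and almost no counts of either miR-365 gene. Mir193b had 519 counts in replicate 1 and 817 in replicate 2, or 153 CPM (Wilson 95% interval 141 to 167) and 222 CPM (208 to 238). Mir193a had 157 and 344 counts, or 46.4 CPM (39.7 to 54.2) and 93.6 CPM (84.2 to 104). Intervals cover counting error only, because without molecular identifiers PCR copies of 1 molecule cannot be recognised. Both genes were lower in replicate 1 than in replicate 2, and the levels of Mir193b did not overlap those of Mir193a.

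Mir365-1 had 1 count in replicate 1 and 6 in replicate 2, or 0.296 CPM (Wilson 95% interval 0.0522 to 1.67) and 1.63 CPM (0.748 to 3.56). Mir365-2 had 0 counts in replicate 1, or 0.887 CPM at the limit of 3 counts (Wilson 95% upper limit 1.14). It had 6 counts in replicate 2, again 1.63 CPM. Neither gene reached 10 counts in any library, so 2 of the 4 genes were detected, beside 316 of all 2202 annotated microRNA genes (14.4%). These counts are uncertain as a measure of mature miR-365: by the sequences above, a read of its 3′ arm fits both loci, also when it carries up to 3 more bases of the hairpin at its 5′ end or 2 at its 3′ end. How many of the multimapping reads were miR-365 could not be told from the count tables. As sense counts, those of Mir193b and Mir365-1 leave out reads from the strand of Gm15738 by definition. None of the 4 genes had an antisense count in either library.

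**Figure D2:**
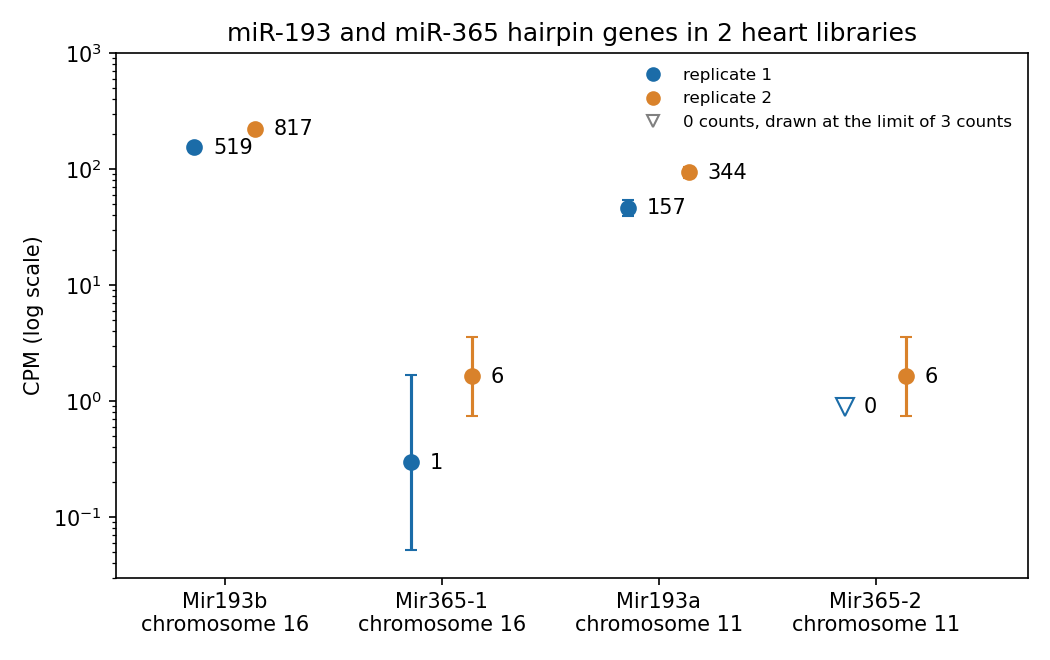
The CPM of each gene, on a log axis, is drawn for replicate 1 (blue) and replicate 2 (orange), with Wilson 95% intervals and the count beside each point. Mir193b and Mir193a lie between 46.4 and 222 CPM, and every point of Mir365-1 and Mir365-2 lies at or under 1.63 CPM, with the open triangle standing for 0 counts at its limit of 3 counts.

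As mean ± SD over n = 2 libraries, Mir193b stood at 188 ± 48.7 CPM and Mir193a at 70.0 ± 33.4 CPM. By mean CPM, Mir193b ranked 107 and Mir193a 154 among the 316 detected genes, whose median was 62.2 CPM. Mir193b was thus 3.02 times the median detected gene and Mir193a 1.13 times. In single libraries Mir193b ranked 117 in replicate 1 and 107 in replicate 2, and Mir193a ranked 166 and 138. All 4 genes together took 0.0200% of the sense gene counts in replicate 1 and 0.0319% in replicate 2.

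Mir193b, the chromosome 16 gene, was above Mir193a, the chromosome 11 gene, in both libraries. Its counts exceeded those of Mir193a 3.31-fold in replicate 1 (exact 95% interval 2.76 to 3.98) and 2.38-fold in replicate 2 (2.09 to 2.70), with a mean of 2.84 ± 0.658 (SD, n = 2). The intervals of the libraries do not overlap. Mir193b supplied 76.8% of the counts of the miR-193 genes in replicate 1, with a Wilson 95% interval of 73.4 to 79.8, and 70.4% in replicate 2, with one of 67.7 to 72.9. The hairpin genes differ in annotated length, 79 nt against 66 nt, and per base the ratio was 2.76 in replicate 1 and 1.98 in replicate 2. No test between the genes across samples was made, since an exact permutation test on 2 libraries cannot give a p under 0.05.

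Within each cluster the miR-365 gene was counted far below its miR-193 neighbour. Mir365-1 had 0.193% of the counts of Mir193b in replicate 1 (exact 95% interval 0.00487 to 1.08) and 0.734% in replicate 2 (0.269 to 1.61). Mir365-2 had 0 counts against 157 of Mir193a in replicate 1. It would lie 52.3-fold lower at the limit of 3 counts, and the exact 95% interval of the ratio begins at 42.1-fold. In replicate 2 Mir365-2 had 1.74% of the counts of Mir193a (0.636 to 3.84). Seen from the other side, in replicate 2 Mir193b had 136 times the counts of Mir365-1 (62.3 to 372) and Mir193a 57.3 times those of Mir365-2 (26.1 to 157). The miR-365 genes did not differ from each other at this depth: each had 6 counts in replicate 2, a ratio of 1 with an exact 95% interval of 0.267 to 3.74, and in replicate 1 both were under 3 counts.

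Other paralogous clusters of a like layout were set beside these, each with a gene that has an arm encoded identically at a second locus and a cluster partner that has none. Mir194-2, beside the gut and kidney microRNA Mir192, had 91.9% of its partner's counts in replicate 1 and 112.5% in replicate 2, and Mir194-1, beside Mir215, had 18.6% and 126%. Mir16-1, beside Mir15a of the cell cycle family, had 46.3% and 86.2%, and Mir16-2, beside Mir15b, had 3.58% and 5.56%. Mir24-2, beside Mir23a, had 0.396% and 0.150%, and Mir24-1, beside Mir23b, had 0.192% and 0.0750%. Those clusters hold another gene with no repeated arm, and of its counts Mir24-2 had 11.5% and 5.27% (Mir27a) and Mir24-1 had 1.58% and 0.889% (Mir27b). The shares of Mir365-1 and Mir365-2 lay, as estimates, under those of the Mir194 and Mir16 genes. Their place beside the Mir24 genes varied with the partner taken, the gene and the library. Wide gaps also occurred between cluster partners with no repeated arm. Mir212 had 47 counts in replicate 1 and 61 in replicate 2, against 1360 and 1480 of Mir132, in a cluster with no paralogous copy. Mir27a had 6235 and 7179 counts, against 180178 and 252550 of Mir23a. What set any of these gaps was not tested.

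**Figure D3:**
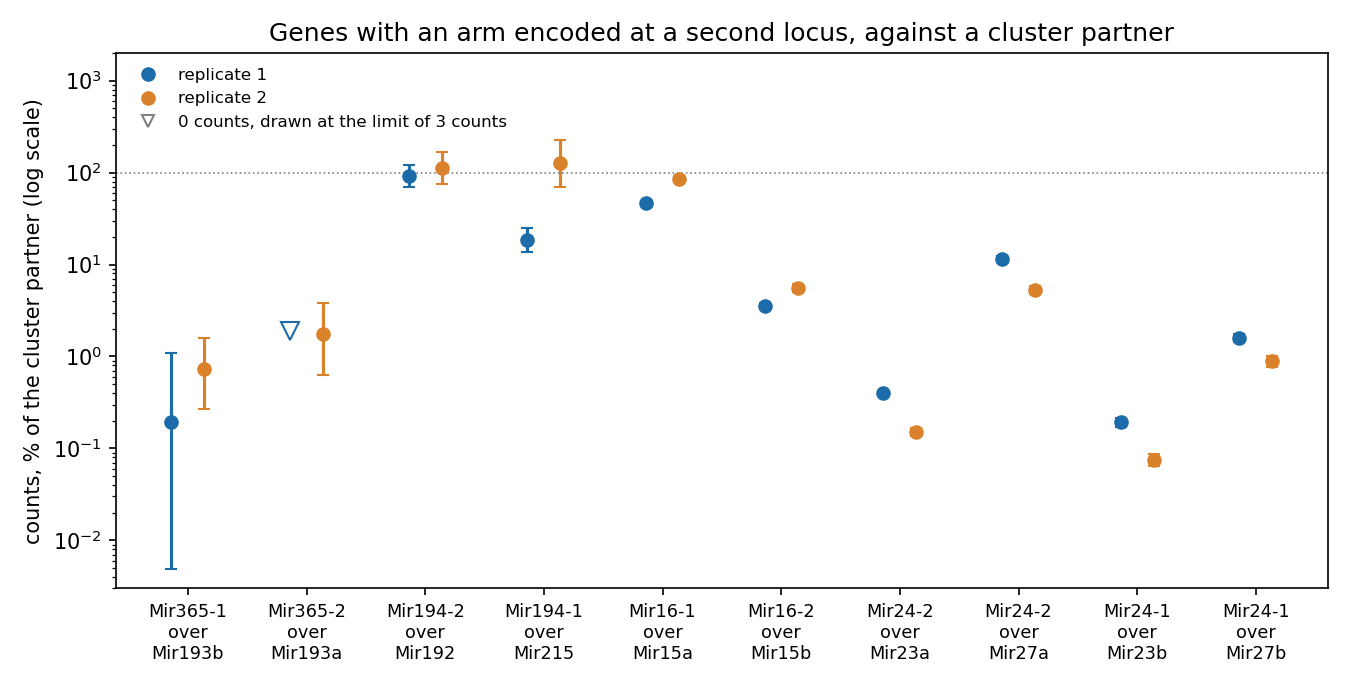
For each gene with an arm encoded identically at a second locus, the count is drawn as a percentage of its cluster partner's count on a log axis, for replicate 1 (blue) and replicate 2 (orange) with exact 95% intervals. The dotted line marks equal counts, and Mir365-1 over Mir193b and Mir365-2 over Mir193a lie at or under 1.74%, apart from the open triangle for 0 counts, drawn at the limit of 3 counts, 1.91%.

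The RefSeq table gave mature sequences for 1018 of the annotated genes, including all 4 examined here. Of these, 92 have an arm that is identical at another locus, and 39 of the 92 (42.4%) were detected, against 244 of 926 (26.3%) of the genes with no such arm found. The table lacks mature sequences of some genes, among them Mir1a-2, Mir133a-1 and Mir133a-2, so repeats at such loci were missed. The mean CPM of Mir365-1 was exceeded by 44 of the 92 genes and that of Mir365-2 by 46, and the median of the 92 was 0.834 CPM. By rank, Mir365-1 and Mir365-2 thus lay near the middle of the 92 genes, but 41 of these (44.6%) had no count in either library. Among the 926 other genes, a like share, 373 (40.3%), had none. The median of the 39 detected genes with a repeated arm was 50.8 CPM, far above the means of Mir365-1 and Mir365-2. The middle rank of Mir365-1 and Mir365-2 is a place among all 92 genes, with those of no count included. Mir193b was exceeded by 84 of the 926 genes with no repeated arm found (9.07%) and Mir193a by 119 (12.9%).

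Both detected miR-193 genes differed between the libraries by more than counting noise, as did 60.4% of the 316 detected genes. Mir193b was lower in replicate 1, with a log2 ratio of replicate 1 over replicate 2 of -0.41 (exact 95% interval -0.57 to -0.25) after scaling by TMM, a trimmed mean that balances the bulk of genes. A two-sided exact binomial test with Benjamini-Hochberg adjustment over the 316 genes gave it an adjusted p = 8.11e-07. Mir193a was lower in replicate 1 by more, with a log2 ratio of -0.89 (-1.17 to -0.61; exact binomial test, adjusted p = 1.71e-10). The intervals of these ratios do not include each other's estimate. The test sets these 2 libraries against counting noise and compares no conditions.

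Of the 316 genes, 33.2% were called lower and 27.2% higher in replicate 1, so that 2 calls among 2 detected genes are no result about the miR-193 genes. The median log2 ratio of all detected genes was -0.05 and the median absolute one was 0.45. An absolute ratio at least as large as that of Mir193b was seen in 168 of the 316 genes (53.2%), and one at least as large as that of Mir193a in 86 (27.2%). Mir365-1 and Mir365-2 did not reach the minimum of 10 counts. Without a minimum, over all 708 genes with a count, their exact binomial adjusted p-values were 0.341 and 0.109, so no difference between the libraries was detectable at their depth.

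**Figure D4:**
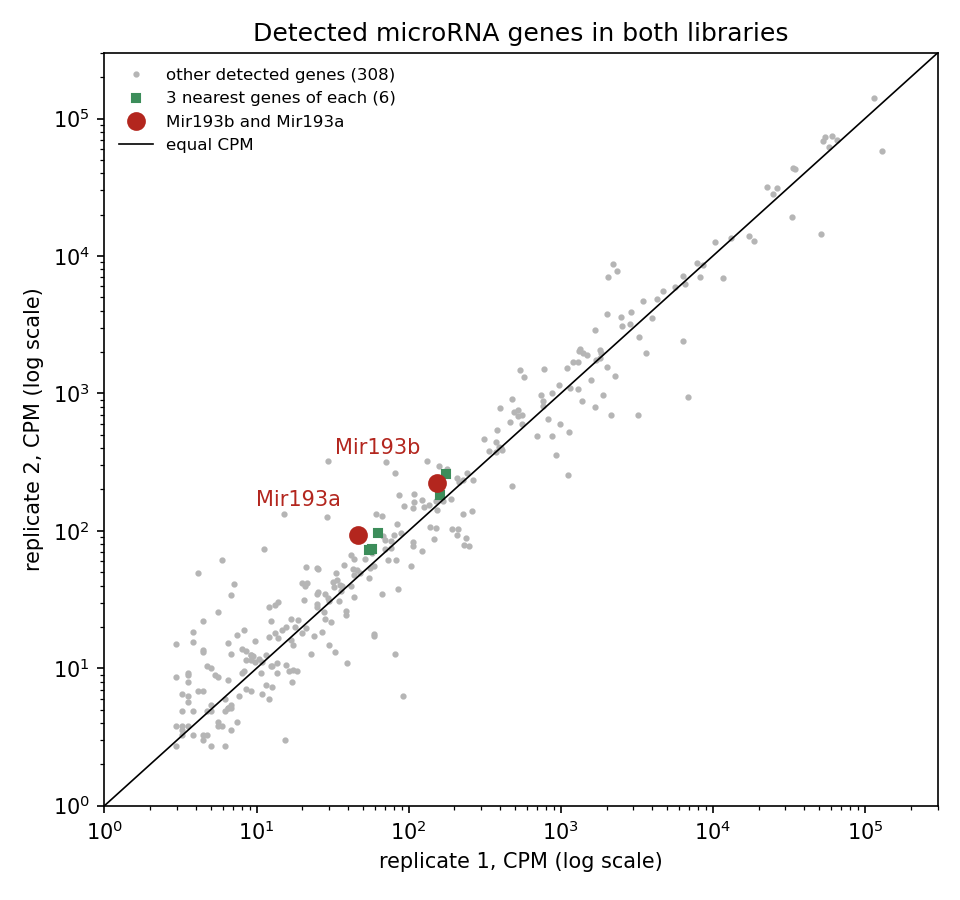
Each point is 1 of the 316 detected genes, with its CPM in replicate 1 on the x axis and in replicate 2 on the y axis, both on log scales. Mir193b and Mir193a (red) lie above the line of equal CPM, within the cloud of other genes (grey), and the 3 genes nearest to each are drawn in green.

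The genes nearest to Mir193b, by Euclidean distance in log2 CPM over the 2 libraries, were Mir350 (distance 0.08), Mir338 (0.29) and Mir411 (0.29). Mir350 had 157 CPM in replicate 1 and 211 CPM in replicate 2. Mir338 had 160 and 183 CPM, and Mir411, of the imprinted cluster on chromosome 12, had 175 and 259 CPM. The genes nearest to Mir193a were Mir154 (distance 0.43), Mir3107 (0.44) and Mir487b (0.46), all farther off than the neighbours of Mir193b. Mir154 had 62.7 and 96.0 CPM, Mir3107 had 55.0 and 72.6 CPM, and Mir487b had 57.6 and 74.0 CPM. The nearest gene to Mir193b lies on chromosome 1 and that to Mir193a on chromosome 12, and likeness over 2 libraries is a description only.

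Markers of several cell types also moved between the libraries, and their part in the ratios of Mir193b and Mir193a was not tested. Of all 316 detected genes, 33.2% were called lower and 27.2% higher in replicate 1. In bulk tissue, more cells of a type and more RNA per cell cannot be told apart. Like the miR-193 genes, 3 of 3 white blood cell genes were lower in replicate 1, with summed levels of 3048 CPM there and 9382 CPM in replicate 2. Of 6 epithelial genes, 5 were lower in replicate 1, with summed levels of 144 and 514 CPM, and both smooth muscle genes were lower, with 35639 and 50822 CPM. The other way went 4 of 4 detected cardiomyocyte genes of 7 listed (5722 and 4902 CPM), 3 of 3 erythroid genes (4182 and 1938 CPM) and the endothelial gene Mir126a (129043 and 57714 CPM). Of the cardiomyocyte genes that were not detected, Mir133a-2 (7.98 and 2.45 CPM) and Mir1a-1 (5.91 and 2.18 CPM) had more in replicate 1. Mir133a-1 had less there, with 1.48 CPM against 4.62 CPM in replicate 2. The 5 fibroblast genes split, with Mir214 higher and Mir21a lower in replicate 1 (summed levels 5231 and 4470 CPM), and Mir199a-1 had 0 counts. Mir122 of hepatocytes had 23.9 and 17.1 CPM, and the skeletal muscle genes Mir206 and Mir133b together had 11.8 and 19.9 CPM. Of 6 neuronal genes, 5 had 0 counts in both libraries. Multimapping reads entered none of these counts, so a count of 0 does not show that a mature microRNA was absent.

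MicroRNAs known to act beside miR-193b and miR-365 in brown adipocytes showed no common direction. Of 16 genes known to promote or accompany brown adipocyte differentiation, 13 were detected, of which 4 were higher and 7 lower in replicate 1 by the exact binomial test, with a median log2 ratio of -0.14, against -0.05 over all detected genes. Over all 316 genes, 27.2% were called higher and 33.2% lower. Scaling by library totals gave 2 higher and 7 lower, against 22.2% and 40.5% over all genes. The highest was Mir378a, a microRNA of mitochondrial metabolism, with 114415 CPM in replicate 1 and 140849 CPM in replicate 2. Mir26b had 26223 and 31504 CPM, Mir328 had 2019 and 1547 CPM, and Mir455, described in mice as a brown fat microRNA, had 1094 and 1533 CPM. Mir455, with a log2 ratio of -0.36, was thus about as far apart between the libraries as Mir193b and stood well above it in level.

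Of 11 genes known to oppose brown adipocyte differentiation, 9 were detected, of which 4 were higher and 2 lower in replicate 1, beside the same 27.2% and 33.2% over all genes. Their median log2 ratio was 0.04 and turns to -0.08 with library totals. Library totals called 4 higher and 3 lower, and DESeq2 size factors 5 and 1, against 29.7% and 29.4% over all genes. The highest were Mir27b, with 6594 CPM in replicate 1 and 6245 CPM in replicate 2, and Mir93, with 4709 and 5571 CPM. Mir155, an inflammation microRNA, had 4266 and 4882 CPM, and Mir34a, known from the p53 response and ageing heart, had 3282 and 2563 CPM. All 4 stood above Mir193b in both libraries.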

How the data were processed

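MicroRNA-seq libraries were made from total RNA, per the labels. Raw counts of reads per microRNA gene were deposited in 3 columns (either strand, sense, antisense), on mm10 with GENCODE M21 as the deposited readme files state. For aligner and counter, the name is not given in the sources used here. The 4 rows that are no genes were left out of library sizes. All 2202 identifiers matched GENCODE M21. The sense column is the stranded one with the larger total.

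CPM, Wilson and exact 95% intervals, and a two-sided exact binomial test between the libraries (TMM of edgeR 4.0.16, Benjamini-Hochberg at 0.05, 10 counts or more in each) were computed. Of these steps, only the binomial test was tried on simulated data, which held counting noise alone and were scaled by library totals. Hairpins were compared on both strands, with no genome. DESeq2 1.42.0 size factors, library totals, other minimum counts, thinning, either-strand counts, all reads as denominator, counts per base and each library left out were alternatives. The tests ran in scipy 1.17.1 with pandas 2.3.3 (Python 3.11.15), scaling in R 4.3.3, and figures in matplotlib 3.10.9.

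The genes and lists were chosen with earlier results of these data known. Named are the 4 genes, the 3 nearest genes of each detected one, the 4 highest of each brown adipocyte list, marker lists by sums, and paralogous clusters, of which those with both the repeated and the unrepeated arm in the RefSeq table are shown. The cluster of Mir132 and Mir212, with no paralogous copy, is named beside them.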

Additional observations from a re-analysis of the deposited data

How the results depend on the processing

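The direction and the call of Mir193b and Mir193a between the libraries were the same under all 6 alternative scalings, columns and filters, with log2 ratios of -0.54 to -0.36 for Mir193b (exact binomial adjusted p 6.88e-11 to 2.23e-05) and -1.01 to -0.83 for Mir193a (adjusted p 1.48e-13 to 2.28e-09). The median of all detected genes was -0.18 with library totals, against -0.05. The number of genes called was 132 to 201, against 191. The share called was 28.4% of 708 genes with no minimum count and 72.9% of 181 genes at 100 counts or more, against 60.4%, as the number tested changed. In replicate 1, 70 genes were called higher and 128 lower with library totals, and 94 and 93 with DESeq2 size factors, against 86 and 105. With reads on either strand, where the gene total is smaller, the mean level became 250 CPM for Mir193b and 92.8 CPM for Mir193a. Per 1000000 of all reads, where the denominator also holds reads outside genes, it became 66.4 for Mir193b and 24.7 for Mir193a. Leaving out each library gave 153 to 222 CPM for Mir193b, 46.4 to 93.6 CPM for Mir193a, and 2.38 to 3.31 for their ratio. Ratios to the miR-365 genes were not recomputed without replicate 2, since replicate 1 holds 1 and 0 of their counts. No paired analysis was possible because the libraries form 1 group. Variants of CAST/EiJ may alter mapping to mm10, which was not tested.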
